A study of Mus musculus with 5 samples.

Results

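Zic1, Zic2, Zic4 and Zic5, members of the ZIC family of zinc finger transcription factors, were followed across 5 libraries of mouse cerebellar tumour cells. They were taken by symbol, with no threshold on a measured value, and make up 4 of the 17739 genes in the deposited table. Every library belongs to 1 group: Math1-Cre;Gli2A mice that received doxycycline (DOX) in the diet from conception (embryonic day 0), described as GLI2 active. The allele is given as R26;Gli2A, and Math1 (Atoh1) drives Cre in granule neuron progenitors. The tumours are labelled medulloblastoma, were taken from the cerebellum once they had formed, and were dissociated with papain before RNA was extracted. The libraries carry the tumour numbers 1, 5, 8, 14 and 15. The labels do not tie each number to a different animal, so errors over the 5 libraries describe how far these samples differ and may be partly technical. There was no control group and no second condition, so the data give levels, differences between genes within a tumour, and differences between tumours of 1 kind. The labels give neither sex nor age.

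ZIC proteins bind DNA through tandem C2H2 zinc fingers that resemble those of the GLI factors, the transcriptional end point of the Sonic hedgehog (SHH) pathway. In the cerebellum ZIC genes are active in granule neuron progenitors and stay on in the granule neurons these give rise to, and they are also known from the meninges. Loss of ZIC1 together with ZIC4 is linked in humans to Dandy-Walker malformation of the cerebellum, and loss of ZIC2 to holoprosencephaly. The genes lie as neighbours on opposite strands. In GENCODE M21 on GRCm38, Zic1 occupies chr9:91358058-91365810 on the minus strand and Zic4 chr9:91362413-91389348 on the plus strand. Zic5 occupies chr14:122456795-122465677 on the minus strand and Zic2 chr14:122475435-122479852 on the plus strand. All 4 are protein coding. The annotated exons of Zic1 and Zic4 share 60 bases (91362459 to 91362518), through 1 of the 12 Zic4 transcripts. The libraries were strand-specific per the labels, but no label says whether strand was used in the counting, so reads from those 60 bases cannot be told apart. Zic2 and Zic5 share no exon bases.

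The promoters of these neighbours are shown because Zic1 and Zic4, although adjacent, had their highest and lowest values in opposite tumours. Zic1 ranged over only 1.09-fold, and a link between promoter and level was not tested. RefSeq windows on GRCm38.p6, 250 bases before to 50 after the gene start, were found for 3 of the 4 members: Zic1 (chr9:91365719-91366018, minus strand), Zic4 (chr9:91368722-91369021, plus strand) and Zic5 (chr14:122465609-122465908, minus strand). Each is read 5′ to 3′ on the strand of its gene, with CG dinucleotides in capitals.
Zic1: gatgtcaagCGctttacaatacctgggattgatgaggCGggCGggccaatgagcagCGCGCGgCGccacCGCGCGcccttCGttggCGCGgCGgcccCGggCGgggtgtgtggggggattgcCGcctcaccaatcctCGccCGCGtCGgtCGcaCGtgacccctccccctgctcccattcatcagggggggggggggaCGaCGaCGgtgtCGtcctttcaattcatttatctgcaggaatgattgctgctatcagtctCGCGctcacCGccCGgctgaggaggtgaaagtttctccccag
Zic4: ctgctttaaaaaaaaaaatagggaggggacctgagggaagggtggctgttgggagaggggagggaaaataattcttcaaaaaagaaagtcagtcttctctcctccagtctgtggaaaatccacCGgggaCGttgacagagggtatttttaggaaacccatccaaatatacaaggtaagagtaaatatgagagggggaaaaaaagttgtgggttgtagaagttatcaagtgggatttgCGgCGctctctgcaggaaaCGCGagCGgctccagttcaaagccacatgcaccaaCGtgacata
Zic5: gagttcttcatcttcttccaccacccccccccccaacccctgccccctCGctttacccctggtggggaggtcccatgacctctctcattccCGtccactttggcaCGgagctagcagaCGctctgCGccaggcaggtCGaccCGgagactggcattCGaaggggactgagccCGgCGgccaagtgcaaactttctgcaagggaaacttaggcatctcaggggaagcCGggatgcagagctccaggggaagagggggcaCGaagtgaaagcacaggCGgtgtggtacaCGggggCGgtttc
The RefSeq starts of Zic1 and Zic4 lie 3204 bases apart, facing away from each other, and the windows differ in composition. GENCODE instead places the Zic4 start at 91362413, within Zic1 and outside the window shown, 3397 bases from the Zic1 start. The comparisons of neighbouring genes below use the GENCODE starts, and promoters at other starts are not shown. The Zic1 window holds 31 CG dinucleotides at a GC content of 65.3%, a CG count that 10.6% of 32851 windows of this length reach. The Zic4 window holds 8 CG dinucleotides at a GC content of 46%, and 48.6% of windows have at least as many. The Zic5 window holds 15 at 62.7%, a CG count reached by 34.6%. Letters of known motifs were then searched on both strands. The CCAAT box (CCAAT) matched 2 times in Zic1 and 0 times in Zic4 and Zic5, and occurs in 37.4% of all windows. The GLI consensus GACCACCCA (0.253% of windows), its form with 1 free base GACCNCCCA, which contains it (0.977%), CCTGCTG from the ZIC motif (10.5%) and the TATA box TATAAA (13.6%) matched in none of the 3 windows. These counts describe letters in short windows only.

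Zic1 stood among the most abundant transcripts of every tumour. Its deposited log2 value was 15.04 in tumour 1, 15.09 in tumour 5, 15.15 in tumour 8, 15.10 in tumour 14 and 15.02 in tumour 15. The mean of 15.08 ± 0.05 (SD, n = 5) placed it 13th of the 17739 genes, and its highest and lowest tumours differed by 1.09-fold. The deposited values take account of library size but not of the length of a transcript. In bulk RNA, fewer cells of a type and less RNA per cell cannot be told apart.

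Zic2 was also high and also varied little. It read 13.91, 13.95, 14.05, 13.92 and 13.83 in tumours 1, 5, 8, 14 and 15, for a mean of 13.93 ± 0.08 and rank 78. The tumours differed by at most 1.16-fold. Tumour 8 was the highest and tumour 15 the lowest for both Zic1 and Zic2.

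Zic4 and Zic5 were expressed at lower levels and varied more. Zic4 read 11.86, 11.63, 11.45, 11.72 and 12.05 in tumours 1, 5, 8, 14 and 15, with a mean of 11.74 ± 0.23 (SD, n = 5). It was highest in tumour 15 and lowest in tumour 8, the tumours at the other ends for Zic1 and Zic2, and spanned 1.52-fold. Zic5 read 11.22, 10.97, 11.38, 11.27 and 11.15, with a mean of 11.20 ± 0.15 and a span of 1.33-fold. Tumour 8 was again the highest, whereas tumour 5 was the lowest. Both genes still lay high in the table, at percentiles 92.4 (Zic4) and 87.1 (Zic5) of gene means.

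**Figure D1:**
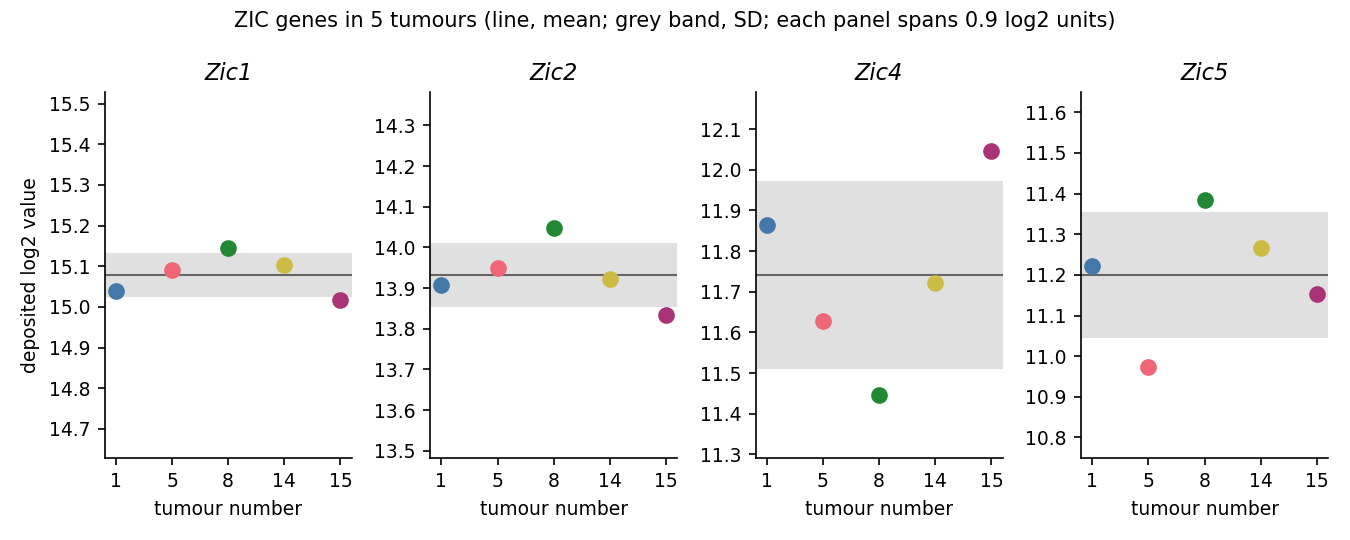
Deposited log2 values of Zic1, Zic2, Zic4 and Zic5 (y axis) in tumours 1, 5, 8, 14 and 15 (x axis), with the mean as a line and the SD as a grey band. All panels span 0.9 log2 units: Zic1 and Zic2 stay within 1.09-fold and 1.16-fold, while Zic4 spans 1.52-fold and runs from its lowest value in tumour 8 to its highest in tumour 15.

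The members fell into a high and a low pair, and each pair joined genes of different chromosomes. Levels of different genes were compared per length, as the log2 value minus log2 of the exon length in kb, with the exon length taken as the union of annotated exons. On this scale Zic1 averaged 12.57, Zic2 12.41, Zic5 8.91 and Zic4 8.37, at percentiles 99.7, 99.6, 86.7 and 79.9 of the 17302 genes with a length. Zic1 exceeded Zic4, its neighbour on chromosome 9, by 4.20 ± 0.28 (SD, n = 5), and Zic2 exceeded Zic5, its neighbour on chromosome 14, by 3.50 ± 0.14. Zic1 minus Zic5 was 3.66 ± 0.14 and Zic2 minus Zic4 was 4.03 ± 0.30. Each of these 4 differences was above 0 in 5 of 5 tumours. Zic1 and Zic2 stayed above Zic4 and Zic5 in every tumour under each of 4 treatments of length, the smallest difference in a single tumour being 1.79 (3.45-fold). The size depended on the gene model of Zic4: Zic1 exceeded it 18.3-fold with the union of exons, 8.68-fold with exons of coding transcripts only and 7.01-fold with the longest transcript. For Zic2 over Zic4 these values were 16.4-fold, 9.07-fold and 7.28-fold.

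Within each pair the order was not settled. Zic1 minus Zic2 was 0.16 ± 0.04 per length (1.12-fold), above 0 in 5 of 5 tumours, but -0.054 with the longest transcript as length and -0.065 with exons of coding transcripts. Zic5 minus Zic4 was 0.54 ± 0.31 per length, and -0.83 with the longest transcript, since the union of exons of Zic4 (10335 bases over 12 transcripts, retained introns among them) is longer than its longest transcript (3891 bases). All 6 pairs gave p = 0.063 in the two-sided exact sign-flip permutation test, also after Benjamini-Hochberg adjustment over the 6 pairs. That p, 2 of 32 sign patterns, is the smallest that 5 tumours allow, so no pair could pass 0.05.

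As shares of the summed ZIC level per length, Zic1 made up 49.3% ± 0.49 (SD, n = 5) and Zic2 44.0% ± 0.78. Zic5 contributed 3.92% ± 0.33 and Zic4 2.73% ± 0.53. Zic1 took between 48.7% and 49.8% in every tumour, whereas Zic4 ran from 2.07% in tumour 8 to 3.48% in tumour 15. The summed level itself was even, from 0.95 times its mean in tumour 15 to 1.06 times in tumour 8. With exons of coding transcripts as length, Zic2 (46.6%) exceeded Zic1 (44.6%), and Zic4 stood at 5.21%.

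Set beside a list of 30 transcription factors of the granule neuron lineage and the 6 GLI and GLIS genes, which carry the related zinc fingers, Zic1 and Zic2 took ranks 2 and 3 of 40 genes per length. Neurod1, a driver of granule neuron differentiation, was above them at 12.71 ± 0.08. Nfix followed at 12.34 ± 0.10. Insm1, a zinc finger factor of neuronal progenitors, stood at 11.99 ± 0.16. From Neurod1 down to Nfix, the range over tumours of each gene overlaps that of the next in this order. The ranks also depended on length. As deposited, without length subtraction, Nfib (15.29) and Nfix (15.21) lay above Zic1 (15.08). Tcf4 (14.18), Neurod1 (14.16) and Nfia (14.13) then also lay above Zic2 (13.93). Atoh1, the gene whose regulatory sequence drives the Cre, stood at 7.54 ± 0.67, lower and less even than any of the 4 ZIC genes. Zic5 and Zic4 took ranks 21 and 25, with Gli2 (8.61 ± 0.11), Glis2 and Meis1 between them, and in this run too each gene's range overlaps that of the next. Olig3, Lmx1a and Lhx9, factors of the rhombic lip, lay below all 4. Other factors of the list did not: Barhl1 (10.67), Pax6 (9.75) and Barhl2 (9.32) lay above Zic5 and Zic4 per length. As deposited, Barhl2 (10.53) lay below Zic5 and Zic4.

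**Figure D2:**
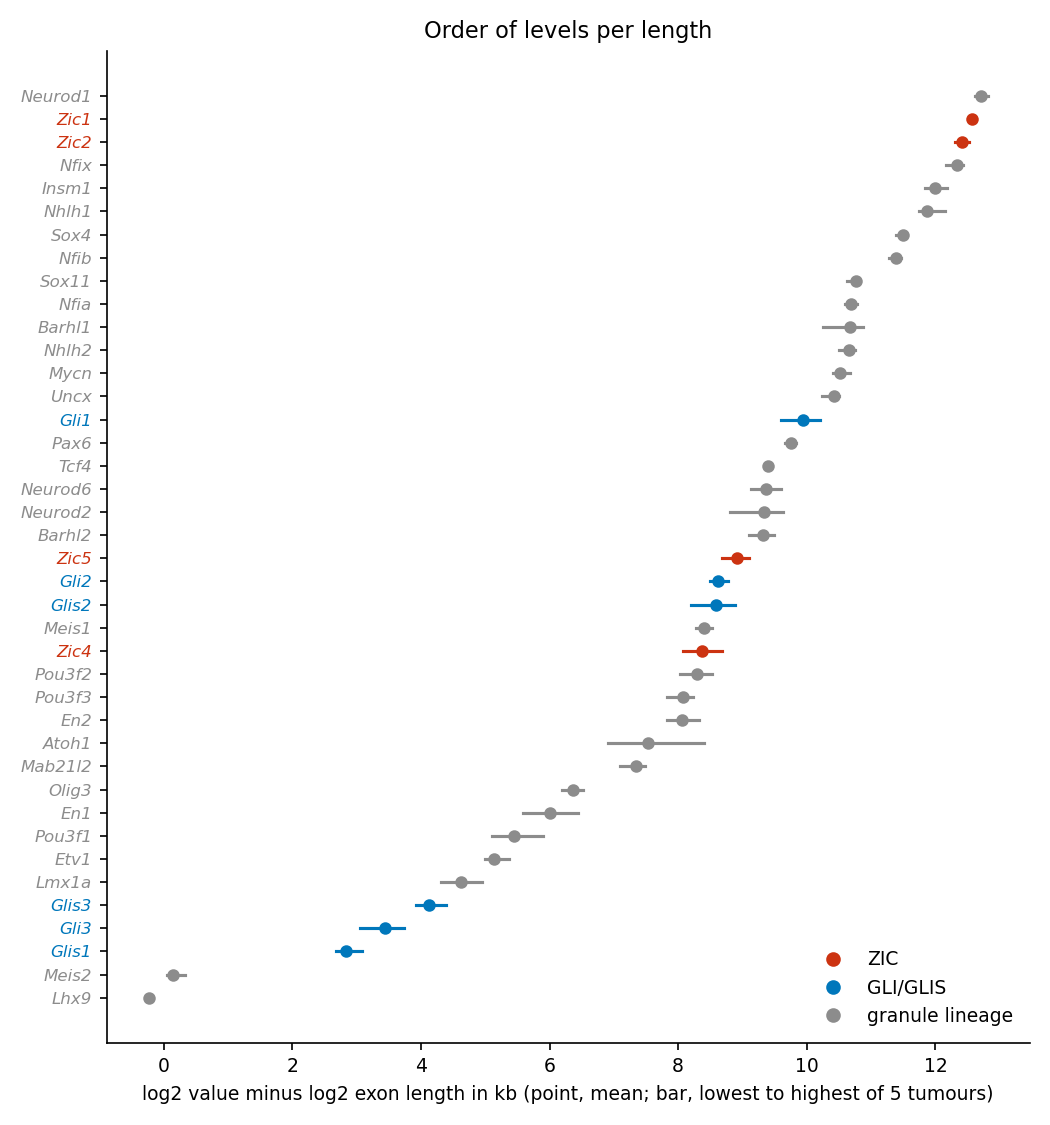
Mean log2 value minus log2 exon length in kb (x axis; bars run from the lowest to the highest of 5 tumours) for the ZIC genes, the GLI and GLIS genes and listed granule lineage factors, 40 genes in order. On this scale, which depends on the exon length used, Zic1 and Zic2 take ranks 2 and 3, at 12.57 and 12.41. Zic5 and Zic4 lie mid-way beside Gli2 and Glis2.

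The ZIC genes were also compared with the GLI genes tumour by tumour. Zic1 exceeded Gli1, a direct target and effector of SHH signalling, by 2.62 ± 0.23 per length (SD, n = 5), and Gli2, the factor named by the genotype, by 3.96 ± 0.12. Zic2 exceeded them by 2.46 ± 0.23 and 3.79 ± 0.14. Whether the Gli2 value includes transcripts of the Gli2A allele was not tested. Zic4 and Zic5 lay below Gli1, by differences of -1.57 ± 0.37 and -1.03 ± 0.13. For Zic4 the size depended on the length used, at -0.72 with exons of coding transcripts and -0.46 with the longest transcript. All 4 exceeded Gli3, the main repressor of the family, by between 4.93 and 9.13. These held in 5 of 5 tumours, with p = 0.063 each in the two-sided exact sign-flip permutation test (adjusted p = 0.0682 over 12 pairs). Zic4 minus Gli2 was -0.24 ± 0.24, below 0 in 4 of 5 tumours (exact p = 0.125, adjusted 0.125). Zic5 minus Gli2 was 0.30 ± 0.13, above 0 in 5 of 5. Both signs depended on length: Zic4 minus Gli2 was above 0 under each of the other 3 treatments (0.35, 0.83 and 1.12), and Zic5 minus Gli2 was -0.19 without length subtraction. Without it Zic2 also exceeded Gli1 and Gli2 by less, 1.67 and 2.54.

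Spread between tumours differed among the 4 genes. The typical (median) SD was 0.11 over the 13691 genes whose mean reached 5. Zic1 lay at percentile 11.7 of SD and Zic2 at 29.5, against 68.1 for Zic5 and 84.5 for Zic4. Among the 5209 genes whose mean reached 10, with a typical SD of 0.09, the percentiles were 18.2, 42.9, 82.1 and 92.6. By the median absolute deviation Zic1 moved to percentile 42.0 and Zic2 to 18.6, so which of the 2 was the steadier depended on the measure. A range over 1.5-fold was reached by 1 of the 4 genes, Zic4, beside 14.7% of all genes with a mean of at least 5. A range over 2-fold was reached by 0 of 4, beside 3.79%. Zic4 passed narrowly, and without tumour 8 or without tumour 15 the count fell from 1 to 0.

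**Figure D3:**
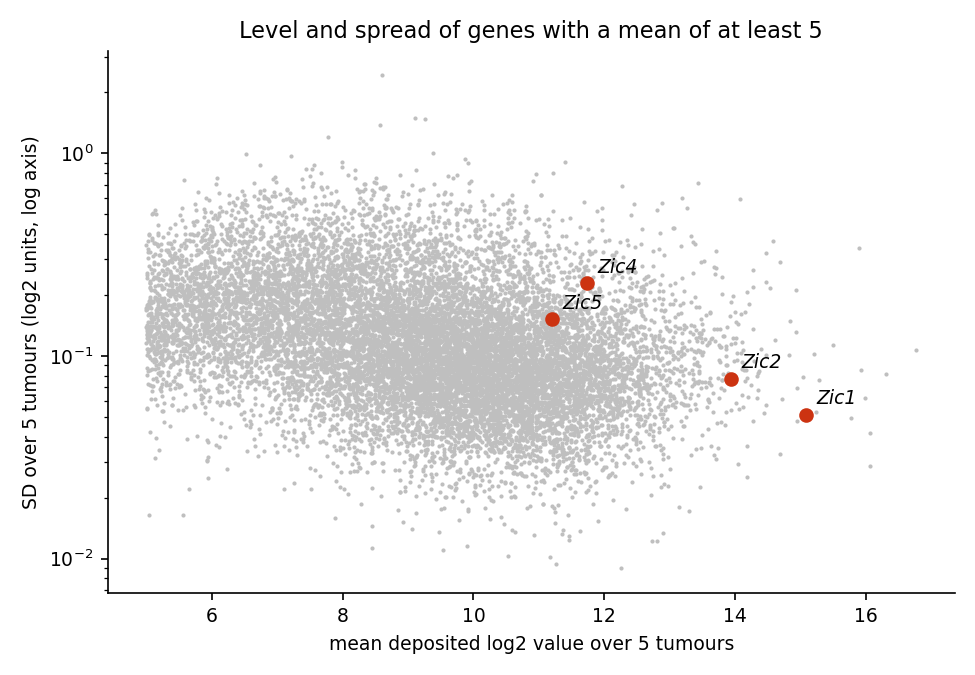
SD over the 5 tumours (y axis, log scale, log2 units) against the mean deposited log2 value (x axis) for 13691 genes with a mean of at least 5, with the ZIC genes in red. Zic1 and Zic2 sit at the right edge with SDs of 0.05 and 0.08, and Zic4 lies toward the upper side of genes of its level.

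Zic1 and Zic2 kept an almost fixed ratio. As deposited, Zic1 minus Zic2 was 1.13, 1.14, 1.10, 1.18 and 1.18 in tumours 1, 5, 8, 14 and 15, so the ratio of these genes from 2 chromosomes moved by 1.06-fold. The SD of that difference was 0.04. For scale, 1637 pairs of genes on opposite strands with starts within 10 kb and means of at least 5 had a median SD of 0.13 for their difference, and 1.41% of them were steadier than Zic1 and Zic2. Both genes have a low SD, which by itself limits how far their difference can move.

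Zic1 and Zic4 did not keep a fixed ratio. Their difference as deposited was 3.17, 3.46, 3.70, 3.38 and 2.97 in tumours 1, 5, 8, 14 and 15, a movement of 1.66-fold, with an SD of 0.28. This exceeded 94.0% of the opposite-strand neighbours, of which 11.1% ranged over 1.5-fold. The SD of the difference was 1.19 times what the genes' own SDs give when combined as if unrelated, where the median neighbour pair had 0.94. That ratio lay at percentile 83.4 of the neighbour pairs, lower than the percentile of the SD itself, to which the high SD of Zic4 contributes. In order of level, Zic1 ran from tumour 8 through 14, 5 and 1 down to tumour 15, and Zic4 from tumour 15 through 1, 14 and 5 down to tumour 8. The SD was 0.22 without tumour 8, 0.22 without tumour 15 and between 0.30 and 0.32 without any of the others. A large SD was not particular to these neighbours. With all tumours, the differences of Zic4 from the genes on chromosome 14 had larger SDs, 0.30 for Zic2 and 0.31 for Zic5.

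Zic2 and Zic5 kept a nearly fixed ratio in 4 of the 5 tumours. Their difference as deposited was 2.69, 2.66, 2.66 and 2.68 in tumours 1, 8, 14 and 15, within 1.02-fold, and 2.97 in tumour 5. Zic5 was thus 1.23-fold lower against Zic2 in tumour 5 than in the other 4. The SD of the difference was 0.14 with tumour 5 and 0.015 without it. The value with tumour 5 lay at percentile 54.9 of the opposite-strand neighbours. The value without it has no such scale, since tumour 5 was singled out from these same values. Between the 2 genes lies 2610035F20Rik, a non-coding transcript that starts 236 bases from Zic2 on the opposite strand. It read 10.07, 9.99, 10.12, 10.26 and 9.95 in tumours 1, 5, 8, 14 and 15. It was lowest in tumour 15, as was Zic2, but highest in tumour 14, and its difference from Zic2 had an SD of 0.12.

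**Figure D4:**
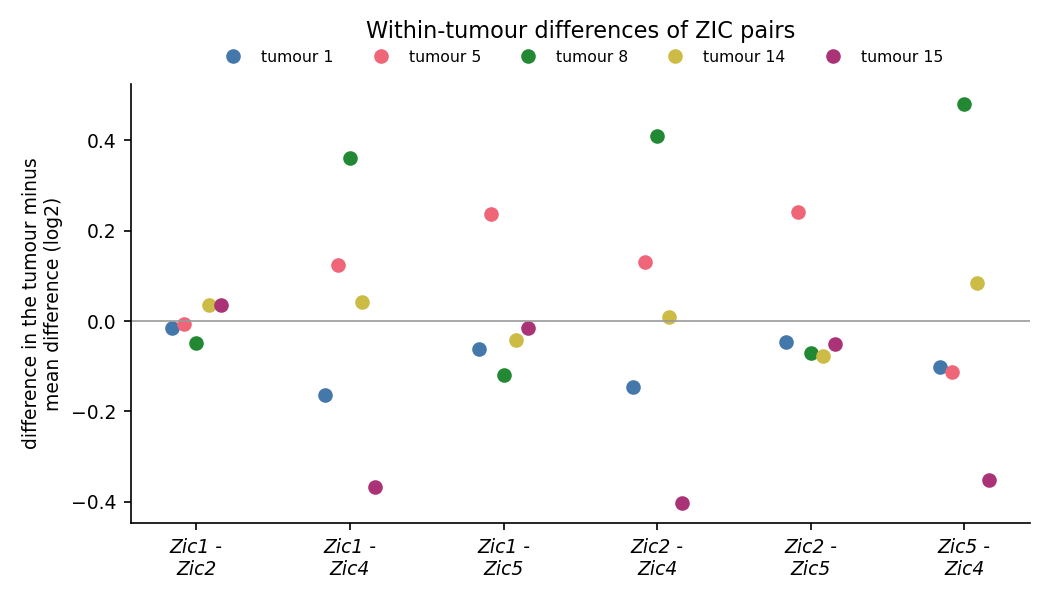
Within-tumour difference of each ZIC pair minus its mean over the tumours (y axis, log2), with 1 point for each of 5 tumours. Zic1 minus Zic2 stays close to 0, the 3 differences that involve Zic4 spread widely with tumours 8 and 15 at the ends, and Zic2 minus Zic5 is flat except for tumour 5.

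**Figure D5:**
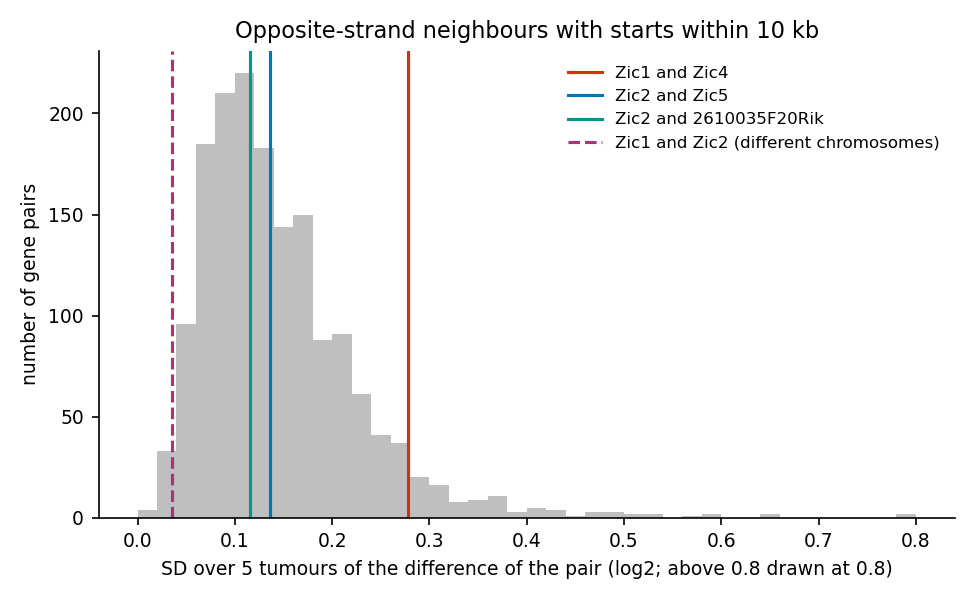
Histogram of the SD over 5 tumours of the difference between opposite-strand neighbours with starts within 10 kb (x axis, log2; y axis, number of the 1637 pairs), with ZIC pairs as vertical lines. Zic1 and Zic4, at 0.28, lie in the upper tail, Zic2 and Zic5, at 0.14, near the median, and Zic1 and Zic2, which are on different chromosomes and shown for scale, at 0.04.

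Within 500 kb of the starts of Zic2 and Zic5, 7 of 17 other annotated genes were in the table, against 0 of 16 around Zic1 and Zic4. Tm9sf2, a membrane protein gene, averaged 10.86 ± 0.04 (SD, n = 5) as deposited and Pcca, which encodes a mitochondrial carboxylase subunit, 9.27 ± 0.15. Clybl, a mitochondrial lyase gene, ran from 9.12 in tumour 15 to 9.70 in tumour 1. None of the 7 came near Zic2 in level per length, the highest being Tm9sf2 at 9.22.

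Across tumours, 3 of the 4 genes (Zic1, Zic2 and Zic5) were highest in tumour 8, beside 18.5% of all genes with a mean of at least 5. Zic1 and Zic2 were lowest in tumour 15, where 22.9% of all genes were lowest. Zic4 was highest in tumour 15 and lowest in tumour 8, as were 21.4% and 22.6% of all genes. Being both highest in tumour 8 and lowest in tumour 15 held for 7.65% of all genes, and the reverse, as for Zic4, for 6.49%. Zic5 was lowest in tumour 5, as were 24.6%. With 4 genes, of which Zic1 and Zic2 move alike, nothing is read from these counts. After the tumours' medians were set equal each gene had its highest and lowest value in the same tumours.

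Other gene groups moved between the same tumours, and their part in the ZIC differences was not tested. In tumour 5, where Zic5 was lowest, 13 of 15 listed SHH target and pathway genes were lowest too, among them Ptch1, the SHH receptor. The share over all genes with a mean of at least 5 was 24.6%. Markers of several other cell types were highest there: 9 of 9 for oligodendrocytes, 7 of 8 for choroid plexus, 9 of 12 for mature granule neurons, 6 of 8 for microglia and 5 of 7 for endothelium, beside 24.1% of all genes. Not all lists did so: oligodendrocyte precursor markers were highest there for 0 of 6 and lowest for 3 of 6. Meningeal fibroblast markers were highest there for 1 of 12 and lowest for 6 of 12, and astrocyte markers highest for 3 of 8. The summed level of the oligodendrocyte markers ran from 14.52 to 15.91 over the tumours on the log2 scale. In tumour 15, where Zic4 was highest, 7 of 12 meningeal fibroblast markers were highest, beside 21.4% of all genes. Col3a1, a fibrillar collagen gene, had the highest mean of the 12 over the 5 tumours, 13.27 ± 0.54, with 14.02 in tumour 15, and Tbx18 had the lowest, 6.91 ± 0.13. The summed level of these 12 ran from 14.01 to 14.91. In tumour 8, where Zic4 was lowest, 0 of the 12 were lowest, beside 22.6% of all genes. There 2 of the 12 were highest, beside 18.5% of all genes. The median deviation of the 12 from their own means was 0.16 in tumour 8 and 0.22 in tumour 15. Other lists also moved in tumour 15. Markers were lowest there for 6 of 8 of microglia, 5 of 8 of choroid plexus and 5 of 12 of mature granule neurons, beside 22.9% of all genes. For oligodendrocytes it was 2 of 9 and for endothelium 1 of 7. GABAergic interneuron markers were low, with a median of 4.99 ± 0.17 (SD, n = 5), and Ptf1a, a factor that specifies this lineage, read 1.35. Granule progenitor markers had a median of 13.34 ± 0.08 over 10 genes. All 10 had a mean of at least 5, as did 13691 of the 17739 genes in the table. Their means ran from 8.62 (Atoh1) to 14.27 (Cntn2), and these levels alone do not check the labelled tumour type.

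Genes whose deviations across the 5 tumours lay nearest to those of each ZIC gene were sought by the root-mean-square difference. For Zic1 they were Med23 (0.005 log2 units), a Mediator subunit gene, Csgalnact2 (0.008) and Klhl20 (0.009). For Zic2 they were Xab2 (0.008), Jmjd6 (0.010) and Eif4enif1 (0.011). Zic2 ranked 394th among all genes by likeness to Zic1, and Zic1 198th by likeness to Zic2. For Zic4 the nearest were Orai2 (0.024), a calcium channel gene, Gpx8 (0.038) and Wars2 (0.041). Orai2 read 9.28, 9.02, 8.86, 9.08 and 9.46 in tumours 1, 5, 8, 14 and 15, with the same ends as Zic4. For Zic5 they were Brip1 (0.023), a DNA repair helicase gene, Ppp1r14b (0.025) and Lrrc8b (0.025). Among 13691 genes and over 5 tumours such matches are a description of these libraries.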

How the data were processed

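RNA was profiled in 5 libraries of 1 group, made from 1.3 ug of total RNA each, per the labels' protocols. The deposited log2 values are taken to be regularised-log values made by the authors with DESeq2, a reading of the table's name in the labels that no source spells out. Per the submitters' processing notes, STAR 2.4.1 and featureCounts (Subread 1.4.6) were also used, with mm10 and GRCm38 as builds. No label or header names the annotation, the filter on genes or the strand setting. A regularised log draws weakly expressed genes towards their mean, so their differences are understated. The table has 7 columns; 2 match no sample and were left out, but the transformation may have included them. With no read counts used, the depth of the libraries is unknown and counting error cannot be given. Column medians lay between 8.51 and 8.58.

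The set of 4 symbols, the 15 gene lists (143 genes, all in the table) and the tests were drawn up with earlier results of these data known, although no measured value enters the rule for the 4. The rule for named genes took the 4 members, the GLI and GLIS genes, granule lineage factors, the 2 highest and the lowest gene of each other list, the 3 nearest genes by profile and the genes within 500 kb. The promoter motifs were chosen after the values were seen. Gene models came from GENCODE M21 (GRCm38), which held 97.5% of the symbols exactly 1 time, and promoters from RefSeq. Differences within tumours were tested by an exact two-sided sign-flip permutation over 32 sign patterns. Alternatives covered gene length, library scaling, filters, the measure of spread and leaving out each tumour. Steps were tested on simulated data. Python 3.11.15, numpy 2.4.6, pandas 2.3.3 and matplotlib 3.10.9 were used.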

Additional observations from a re-analysis of the deposited data

Results flagged for a closer look

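The difference of Zic2 and Zic5 had 1 tumour far from the others: the gap from tumour 5 to its nearest neighbour took 0.901 of the whole range, above the critical value of 0.71 for 5 samples. The share of Zic5 in the summed ZIC level did too, at 0.728, with 3.34% in tumour 5 and 3.96% to 4.19% in the other 4. The share rests on the same Zic5 values, so these are not independent. Chance puts about 1 in 20 groups above this limit, and 14 quantities were checked.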

How the results depend on the processing

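With the longest transcript as length, Zic1 minus Zic2 was -0.054, Zic5 minus Zic4 -0.83 and Zic4 minus Gli2 1.12. With exons of protein-coding transcripts, an alternative chosen after seeing the data, they were -0.065, -0.52 and 0.83. Without length subtraction Zic5 minus Zic4 was -0.54, Zic4 minus Gli2 0.35 and Zic5 minus Gli2 -0.19. These 9 values have the opposite sign to those of the report, and the gene length itself sets them. Shares of the summed level moved by more than their SD: to 44.2% (Zic1), 45.9% (Zic2), 6.39% (Zic4) and 3.54% (Zic5) with the longest transcript, to 44.6%, 46.6% and 5.21% (Zic1, Zic2, Zic4) with coding exons, and to 61.7%, 27.9% and 6.19% without length subtraction. Leaving out each tumour in turn, the number of the 4 genes ranging over 1.5-fold was between 0 and 1, and the SD of Zic2 minus Zic5 between 0.015 (without tumour 5) and 0.15. No difference between genes turned its sign when a tumour was left out, and with 4 tumours the smallest exact p is 0.125. Setting the column medians equal cannot change a difference within a tumour. It left the highest and lowest tumour of each of the 4 genes as they were, and put their SDs at percentiles 12.8 (Zic1), 30.0 (Zic2), 84.4 (Zic4) and 69.1 (Zic5). No paired analysis was possible because there is only 1 group. The depth is unknown, and how much of a range as small as that of Zic1, 1.09-fold, is counting error was not tested.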
